A study of Mus musculus with 4 samples.

Results

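Translation initiation factors were read from an RNA-seq table of mouse tibialis anterior (TA), the fast-twitch muscle at the front of the shin. The members were all rows annotated as protein coding whose gene symbol began with Eif and a digit, leaving out Eif2s3x and Eif2s3y. This gave 70 of 57180 rows. By factor number, 21 belonged to eIF1, 12 to eIF2, 14 to eIF3, 18 to eIF4, 4 to eIF5 and 1 to eIF6. The Exercise group comprised 2 libraries of mice that entered treadmill running at 3 weeks of age, with 5 days of familiarization of 30 min each at speeds starting at 8 m/min, followed by 4 weeks of training in sessions of 45 min at 12 m/min held 5 days a week. The Control group comprised 2 libraries of mice not given this training. TA was taken at 8 weeks of age in both groups. The methods of the study name wild-type male C57BL/6J mice, with no transgene or deletion in either group, and the sources used here do not say how many animals a library holds.

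Translation initiation brings the initiator tRNA and a ribosome to the start codon of an mRNA. eIF1, eIF1A, eIF2, eIF3 and eIF5 assemble on the small ribosomal subunit, with eIF2 carrying the initiator tRNA and eIF2B recharging eIF2 with GTP. eIF4F, made of the cap-binding protein eIF4E, the helicase eIF4A and the scaffold eIF4G, recruits that subunit to the capped mRNA. eIF5B then joins the large subunit. In skeletal muscle the pathway is known as a point at which contraction, feeding and growth signals act on protein synthesis, mainly through mTORC1 and the eIF4E-binding proteins and through phosphorylation of eIF2α. RNA levels do not report on phosphorylation or on protein.

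The values are TPM, a length-corrected abundance that adds up to the same sum in every library. A library's 50 highest genes held 50.5 and 45.8% of its TPM in Exercise, against 62.1 and 59.0% in Control, so that the share left to all other genes differed between the groups. Across the 13288 tested genes the median difference of log2(TPM + 1), Exercise minus Control, was 0.53, and after median-of-ratios scaling, which divides each library by its median ratio to a common reference, it was 0.02. Differences below are therefore also given relative to that median or after scaling. Y-linked and X-linked transcripts went against the single sex named in the methods. Xist was listed at 0 and 0.07 TPM in Exercise libraries and at 14.9 and 11.7 TPM in Control libraries. The Y-linked genes Ddx3y (41.2 and 37.6 against 10.04 and 12.06 TPM), Uty (11.6 and 11.1 against 3.75 and 4.03 TPM) and Kdm5d (7.45 and 8.50 against 1.81 and 2.67 TPM) were present in both groups and higher in Exercise. Both Control libraries thus held Xist together with transcripts of these Y-linked genes. Eif2s3y, also Y-linked, was likewise higher in Exercise, at 16.7 and 25.2 TPM, but unlike the others was near absent in Control, at 0.30 and 0 TPM. The difference in Xist and Y transcripts and exercise cannot be told apart, and no fit without both Control libraries was possible.

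Muscle markers also differed. The summed level of 12 fast muscle genes ranged from 100662 to 119511 TPM in Exercise and from 156697 to 168141 TPM in Control. Of the 12, 9 were called lower, beside 6.19% of all tested genes, and none was at 0. The summed level of 8 slow muscle genes ranged from 8364 to 13373 TPM in Exercise and from 3170 to 4189 TPM in Control. Of the 8, 6 were called higher, beside 55.3% of all tested genes. Myl2 and Myl3, which encode slow myosin light chains, stood at 8.74 and 0.81 TPM in Exercise library 1 and at 1872 and 465 TPM in Exercise library 2. All 5 satellite cell markers were called higher, with sums of 95.5 to 105 TPM in Exercise and 36.4 to 44.5 TPM in Control. After median-of-ratios scaling 9 fast markers were called lower, beside 16.2% of all tested genes. Of the slow and satellite cell markers, 5 and 3 were then called higher, beside 10.9% of all tested genes. All 8 adipocyte markers were below Control in both Exercise libraries, as were 10.5% of all tested genes. Of the 7 tested, 6 were called lower, and again 6 after median-of-ratios scaling. Testing required 1 TPM in 2 or more libraries, which Plin1, Cidec, Retn and Adrb3 of the 6 reached in Control libraries alone. These genes were thus tested only through the group where they were high. Sums over the 8 were 265 to 318 TPM in Exercise against 370 to 749 TPM in Control. Fabp4, which was not called, made up most of these sums, at 264 and 306 TPM in Exercise against 307 and 475 TPM in Control. The more specific Adipoq (0.21 and 1.43 against 8.06 and 38.4 TPM) and Cfd (0.80 and 8.24 against 38.9 and 174 TPM) lay further apart, and Cidec and Lep were at 0 in Exercise library 1. Sums of 5 erythroid markers were 609 and 571 TPM in Exercise libraries and 699 and 163 TPM in Control libraries. Those of 7 fibro-adipogenic progenitor markers were 231 and 318 against 391 and 188 TPM. For 5 endothelial markers they were 55.5 and 52.8 against 51.2 and 34.9 TPM, and for 8 macrophage markers 21.3 and 30.95 against 49.1 and 38.1 TPM. The part of these differences in the values below was not tested. In bulk tissue, fewer cells of a type and less RNA per cell cannot be told apart.

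Most initiation factor RNAs took a larger share of the Exercise libraries, and Eif4e3 took a smaller one. Summed over all members, the level was 4900 and 5200 TPM in Exercise and 3427 and 4043 TPM in Control. Of the 51 members that reached 1 TPM in 2 or more libraries, 33 were called higher, 1 was called lower and 17 were not called (limma on log2(TPM + 1), adjusted p under 0.05). Of the 33, Eif5a2 reached 1 TPM in Exercise libraries alone and so was tested only through the group where it was high. Among all tested genes 55.3% were called higher and 6.19% lower. In 42 members both Exercise libraries lay above both Control libraries, and in 1 both lay below, which held for 72.8% and 10.5% of all tested genes. The median difference was 0.49 for the members and 0.53 for all tested genes, and the members' share called higher was 64.7%. After median-of-ratios scaling 4 members were called higher and 11 lower, beside 10.9% and 16.2% of all tested genes, and the median of the members was -0.12, with 20 positive and 31 negative differences. After quantile normalization, which gives every library the same distribution of values, 8 were called higher and 7 lower, beside 16.4% and 13.2% of all genes. No member was called in opposite directions under these settings.

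**Figure D1:**
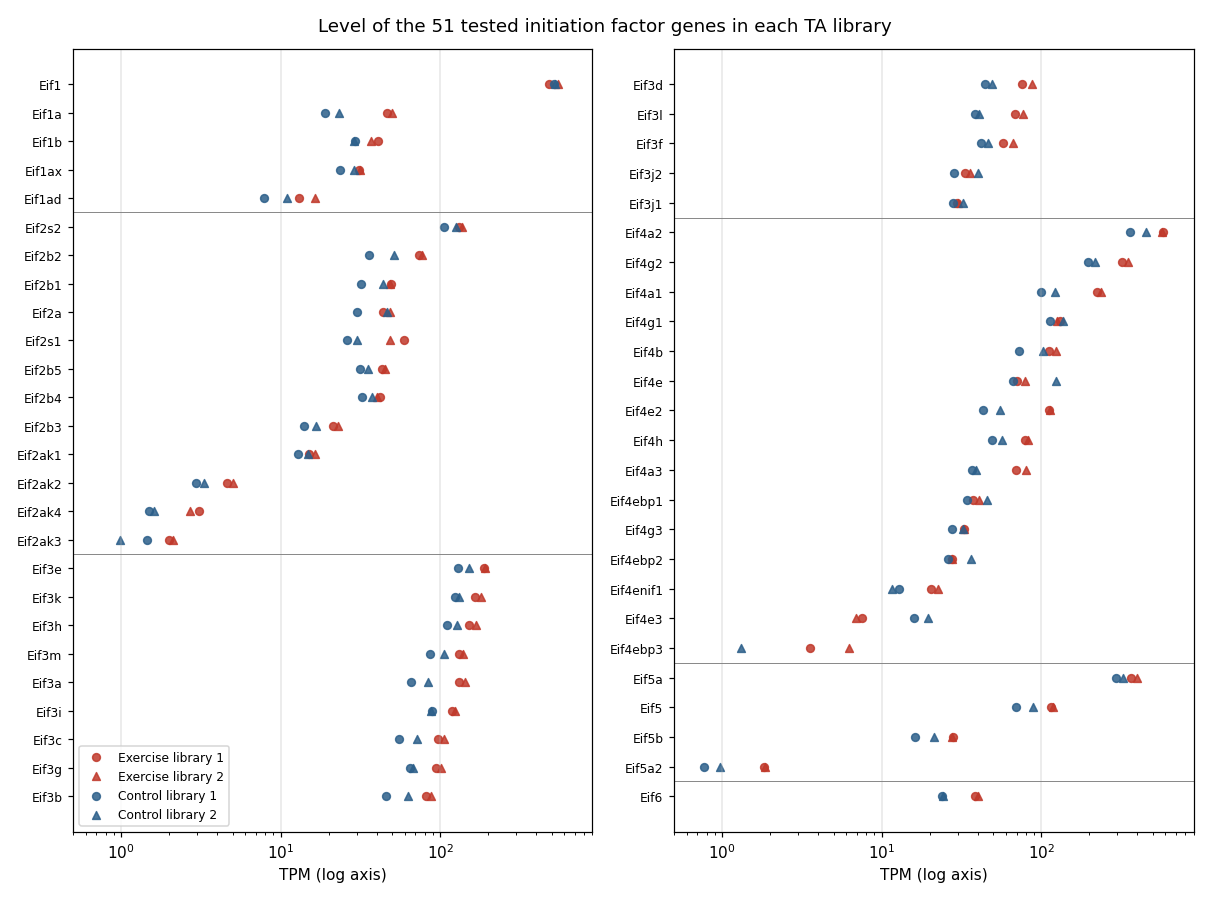
Level of the 51 tested initiation factor genes in each library (TPM, log axis), grouped by factor number, with Exercise in red and Control in blue, and circles and triangles for library 1 and library 2. In 42 genes both red points lie to the right of both blue points and in Eif4e3 both lie to the left, and the point of Eif4ebp3 at 0 TPM in Control library 1 cannot be drawn on a log axis.

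Just 4 members, Eif1a, Eif4e2, Eif4a1 and Eif4a3, were called higher in deposited TPM and again under median-of-ratios scaling, under quantile normalization and with the 50 highest genes left out. Eif4e3 was called lower under all of these. How many of all tested genes kept a call under all of these was not counted. Another 29 members were called higher in deposited TPM and not called after median-of-ratios scaling, and 10 of the 17 members not called in deposited TPM were called lower after it. In deposited TPM the number called higher was 14 of 51 without Exercise library 1, beside 40.4% of all tested genes, 6 without Exercise library 2, beside 19.7%, 19 without Control library 1, beside 43.8%, and 35 without Control library 2, beside 53% of all tested genes. The 7 members called in the same direction whichever library was left out were Eif1a, Eif2s1, Eif3l, Eif4a1, Eif4a3, Eif4e2 and Eif4e3. With median-of-ratios scaling and a library left out as well, between 0 and 5 members were called higher and between 1 and 10 lower, and Eif4e3 was called lower in 4 of 4 such fits. In those fits Eif1a was called higher in 2 of 4, Eif4e2 and Eif4a1 in 1 of 4 each and Eif4a3 in 0 of 4. With 2 libraries against 2, an exact permutation test of a single gene cannot give a p below 0.33, and the limma p-values rest on the spread among libraries that may be technical replicates. The share of all tested genes that kept a call whichever library was left out was not counted either. The members named in this paragraph are therefore not set apart from other genes.

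**Figure D2:**
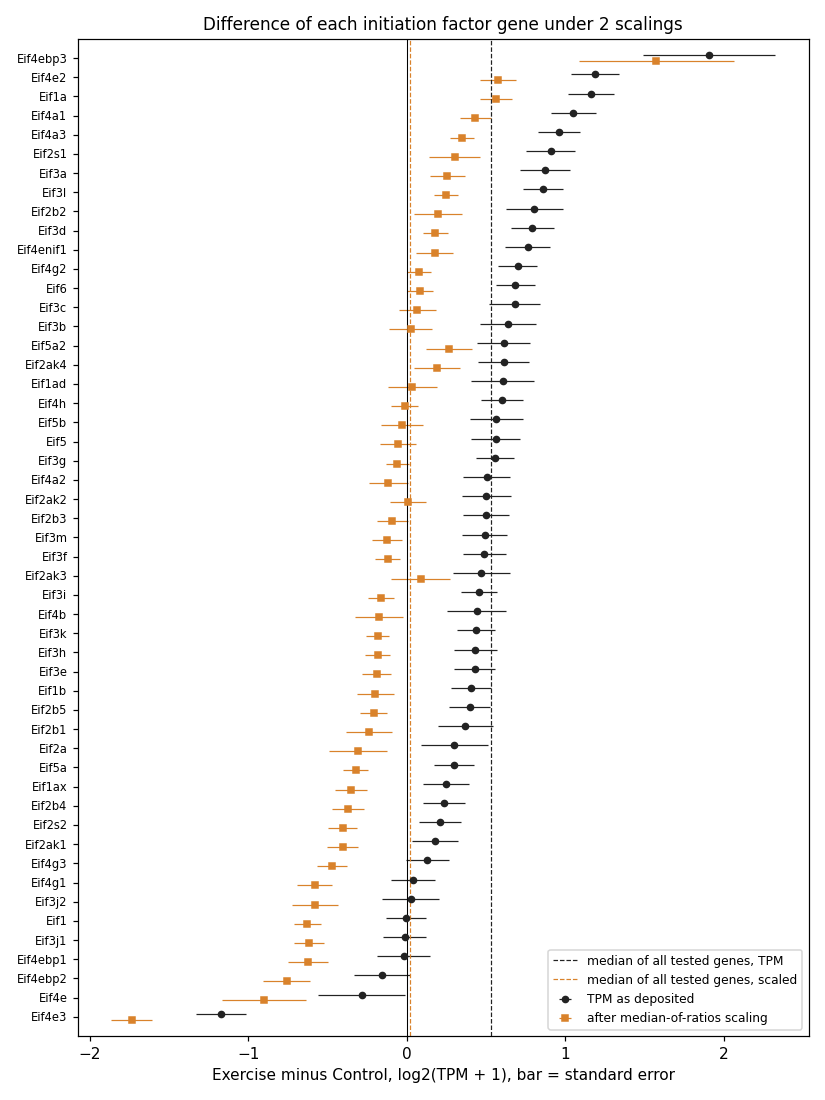
Difference of log2(TPM + 1), Exercise minus Control, for each of the 51 tested initiation factor genes as deposited (black) and after median-of-ratios scaling (orange), with standard errors as bars. Dashed lines mark the median of all 13288 tested genes, at 0.53 as deposited and 0.02 after scaling, and the genes spread on both sides of both lines, with Eif4e3 at -1.17 and -1.74 as the lowest under either.

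Initiation factor genes were abundant in TA. Their median level over the 4 libraries was 53.1 TPM, against 8.83 TPM for all tested genes, and 46 of the 51 lay above that value of all genes. The highest means were those of Eif1 (517 TPM), Eif4a2 (491 TPM), Eif5a (346 TPM) and Eif4g2 (271 TPM).

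Factor number 1 held the genes that keep the scanning ribosome open for start codon search. Eif1, which guards the accuracy of start codon choice, had 484 and 549 TPM in Exercise libraries, against 514 and 522 TPM in Control libraries. The groups overlapped, and the log2 difference was -0.01 (adjusted p = 0.97), which after median-of-ratios scaling became -0.63 (adjusted p = 0.011). Eif1b, a close relative of Eif1, had 40.8 and 37.1 TPM in Exercise, against 29.2 and 29.1 TPM in Control, and was called higher in deposited TPM (log2 difference 0.41, adjusted p = 0.030) and not after scaling (-0.20). Its level was a small fraction of that of Eif1 in every library.

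The pair that encodes eIF1A did not share a call. Eif1a had 46.7 and 50.2 TPM in Exercise libraries, against 18.9 and 23.4 TPM in Control libraries. Both Exercise libraries were more than 1.5 times above the higher Control library, and the log2 difference was 1.16 (SE 0.15, adjusted p = 0.0030 from limma) in deposited TPM and 0.56 (adjusted p = 0.020) after median-of-ratios scaling. Eif1ax, the X-linked copy, had 30.9 and 31.4 TPM in Exercise, against 23.7 and 28.7 TPM in Control. It was not called, at a log2 difference of 0.25 (adjusted p = 0.17), or -0.35 after scaling. Eif1a therefore stood above Eif1ax in both Exercise libraries, at 1.51 and 1.60 times its TPM, and below it in both Control libraries, at 0.799 and 0.814 times. The part of the differing Xist and Y transcripts in the level of an X-linked gene was not tested. In all, 3 of 5 tested factor 1 genes were called higher, beside 55.3% of all tested genes, and between 1 and 2 with a library left out, beside 19.7 to 53% of all genes. The other called gene was Eif1ad, which encodes a protein with an eIF1A domain, at 13.0 and 16.5 TPM in Exercise against 7.89 and 10.9 TPM in Control. It overlaps Banf1 on the opposite strand over 15.3% of its exonic bases, and Banf1 was at 75.0 and 80.1 TPM in Exercise and 57.5 and 64.0 TPM in Control. Whether strand was used in counting is not known, so reads of this stretch cannot be assigned to either gene.

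Factor number 2 held the carrier of the initiator tRNA, its exchange factor and the kinases that switch it off. Eif2s1, which encodes eIF2α, the subunit phosphorylated under stress, had 59.2 and 48.3 TPM in Exercise libraries, against 25.97 and 30.28 TPM in Control libraries. The groups did not overlap (log2 difference 0.91, SE 0.16, adjusted p = 0.0048), while after median-of-ratios scaling the difference was 0.30 and not called (adjusted p = 0.21). Eif2s2, which encodes eIF2β, had 132 and 136 TPM in Exercise, against 106 and 126 TPM in Control. It was not called in deposited TPM (log2 difference 0.21, adjusted p = 0.20) and was lower after scaling (-0.41, adjusted p = 0.033). The ratio of Eif2s1 to Eif2s2 within a library, which no scaling of whole libraries alters, was 0.450 and 0.355 in Exercise and 0.245 and 0.241 in Control. Eif2a, which encodes the separate factor eIF2A and no eIF2 subunit, had 44.1 and 48.4 TPM in Exercise, against 30.0 and 46.5 TPM in Control. Those groups overlapped, the 2 Control libraries lying far apart (log2 difference 0.30, adjusted p = 0.25, after scaling -0.31).

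The 5 subunits of eIF2B did not share 1 call. Eif2b2 (eIF2Bβ) had 74.0 and 77.3 TPM in Exercise libraries, against 35.8 and 51.1 TPM in Control libraries. Every Exercise value was above every Control value, and the log2 difference was 0.81 (adjusted p = 0.011), or 0.19 and not called after median-of-ratios scaling. Eif2b3 (eIF2Bγ) and Eif2b5 (eIF2Bε, the catalytic subunit) were also called higher, at 0.50 and 0.40, and turned to -0.09 and -0.21 after scaling. Eif2b1 (eIF2Bα) had 49.2 and 48.7 TPM in Exercise, against 32.1 and 44.1 TPM in Control. Eif2b4 (eIF2Bδ) had 41.7 and 40.3 TPM in Exercise, against 32.4 and 37.2 TPM in Control. Neither passed the test, with log2 differences of 0.37 (adjusted p = 0.10) and 0.23 (adjusted p = 0.16), and -0.24 and -0.37 after scaling. After that scaling none of the 5 was called. Eif2b4 overlaps Snx17 on the opposite strand over 7.85% of its exonic bases, with the same limit on assigning reads as for Eif1ad. Snx17 was at 38.25 and 40.7 TPM in Exercise and 25.3 and 26.55 TPM in Control.

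The eIF2α kinases were low, apart from Eif2ak1, the heme-regulated kinase HRI. Eif2ak1 had 15.2 and 16.4 TPM in Exercise libraries, against 12.80 and 14.95 TPM in Control libraries. The groups barely separated (log2 difference 0.18, adjusted p = 0.31), and after median-of-ratios scaling the gene was lower (-0.41, adjusted p = 0.037). It overlaps Aimp2 on the opposite strand over 8.59% of its exonic bases, and Aimp2 stood at 99.0 and 80.4 TPM in Exercise and 120 and 122 TPM in Control, with the same limit on assigning reads. Eif2ak3, the endoplasmic reticulum kinase PERK, had 2.01 and 2.11 TPM in Exercise, against 1.46 and 0.98 TPM in Control (log2 difference 0.47, adjusted p = 0.061). Eif2ak2, the double-stranded RNA kinase PKR, and Eif2ak4, the amino acid sensor GCN2, were called higher at log2 differences of 0.50 and 0.61, and not after scaling, at 0.01 and 0.19. At such levels log2(TPM + 1) understates the ratio of the groups. Over factor 2, 6 of 12 genes were called higher in deposited TPM, beside 55.3% of all tested genes. With a library left out the number was between 1 (without Exercise library 2, beside 19.7% of all genes) and 8 (without Control library 2, beside 53%).

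Factor number 3 is the largest initiation factor, a ring of subunits on the back of the small ribosomal subunit. All 12 genes of its subunits other than Eif3j1 and Eif3j2 were called higher in deposited TPM, with log2 differences between 0.43 and 0.87, and none of the 12 was called after median-of-ratios scaling, when 7 of them turned negative. Over the whole factor 12 of 14 were called higher, beside 55.3% of all tested genes, and the median difference of the 12 was 0.52, beside 0.53 for all genes. With a library left out, 1 of the 12 was called higher without Exercise library 2 (19.7% of all genes), 4 without Exercise library 1 (40.4%), 7 without Control library 1 (43.8%) and 12 without Control library 2 (53%). The most abundant were Eif3e, with 187 and 191 TPM in Exercise libraries against 129 and 152 TPM in Control libraries, and Eif3k, with 166 and 181 TPM against 124 and 132 TPM. Both lay above Control in each Exercise library, at log2 differences of 0.43 and 0.44 (adjusted p = 0.029 and 0.021), and at -0.19 and -0.18 after scaling.

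Within the ring the subunits kept a narrow range. The highest of the 12 was 3.25 and 2.86 times the lowest in Exercise libraries and 3.38 and 3.71 times in Control libraries, with Eif3e highest in all 4 libraries. Eif3f was lowest in both Exercise libraries and Eif3l in both Control libraries. Eif3l, which sits with Eif3k at the edge of the complex, had 68.8 and 76.7 TPM in Exercise, against 38.3 and 41.0 TPM in Control. It separated cleanly (log2 difference 0.86, SE 0.13, adjusted p = 0.0036) and fell short of the threshold after median-of-ratios scaling (0.25, adjusted p = 0.067). Eif3l stood at 0.414 and 0.425 times the TPM of Eif3k in Exercise and at 0.308 and 0.311 times in Control. Eif3a, the largest scaffold subunit, and Eif3d, a subunit that can itself bind the cap, had log2 differences of 0.87 and 0.79, and Eif3a, Eif3d and Eif3l were the 3 called higher after quantile normalization as well. The remaining subunits Eif3b, Eif3c, Eif3f, Eif3g, Eif3h, Eif3i and Eif3m ranged from 0.43 to 0.68. For Eif3d, 43.3% of the exonic bases overlap an antisense gene, whose own level was at most 0.41 TPM.

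Eif3j1 and Eif3j2 encode the loosely bound subunit eIF3j and did not follow the ring. Eif3j1 had 29.6 and 30.1 TPM in Exercise libraries, against 27.9 and 32.5 TPM in Control libraries. Eif3j2 had 33.4 and 35.6 TPM in Exercise, against 28.59 and 40.05 TPM in Control. The groups overlapped for both, with log2 differences of -0.01 (adjusted p = 0.94) and 0.03 (adjusted p = 0.91), and after median-of-ratios scaling both were lower, at -0.62 and -0.58 (adjusted p = 0.014 and 0.044). These values are uncertain for each gene alone. Of all pairs of tested members, this was the single pair whose transcripts shared any run of 50 bases, and such runs covered 39.4% of Eif3j1 and 90.8% of Eif3j2, so reads may have been divided between them in the authors' counting.

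Factor number 4 held the cap-binding proteins, eIF4A, eIF4G and the eIF4E-binding proteins, with 15 tested genes, the most of any factor number. Differences spanned the widest range of any factor number, from -1.17 in Eif4e3 to 1.91 in Eif4ebp3. The upper end thus lay in an eIF4E-binding protein at 0 and 1.32 TPM in Control libraries, and the cap-binding genes reached 1.19. Eif4e2 encodes 4EHP, a cap-binding protein that does not bind eIF4G and, with GIGYF2, is known for repressing mRNAs. It had 111 and 114 TPM in Exercise libraries, against 43.3 and 55.3 TPM in Control libraries. Both Exercise values were more than double either Control value, with a ratio of means of 2.29, a log2 difference of 1.19 (SE 0.15, adjusted p = 0.0030) and 0.57 (adjusted p = 0.025) after median-of-ratios scaling. Eif4e, the canonical cap-binding subunit of eIF4F, had 70.8 and 78.7 TPM in Exercise, against 66.7 and 124 TPM in Control. The groups overlapped, with the 2 Control libraries far apart, and the log2 difference of -0.29 (adjusted p = 0.39) was -0.90 and also not called after scaling (adjusted p = 0.065). Without Control library 1 it was -0.73 and called lower, and without Control library 2 it was 0.16.

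Eif4e3, a further cap-binding relative, was the member called lower. It had 7.53 and 6.93 TPM in Exercise libraries, against 15.9 and 19.4 TPM in Control libraries. Both Exercise libraries were below either Control library, at a ratio of means of 0.410 and a log2 difference of -1.17 (SE 0.16, adjusted p = 0.0031), or -1.74 (adjusted p = 0.0065) after median-of-ratios scaling. Leaving out any library kept the difference between -1.31 and -1.04. Eif4e1b, the oocyte cap-binding relative, was at 0 TPM in both Exercise libraries and at 0 and 0.13 TPM in Control libraries, and was not tested. Of the summed TPM of Eif4e, Eif4e2 and Eif4e3, Eif4e2 held 58.7 and 57.1% in Exercise, against 34.4 and 27.8% in Control. Eif4e held 37.3 and 39.4% in Exercise, against 53.0 and 62.5% in Control, and Eif4e3 held 3.97 and 3.47%, against 12.6 and 9.73%. The leading gene of the family was thus Eif4e2 in both Exercise libraries and Eif4e in both Control libraries.

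The sequences before the RefSeq starts of Eif4e2 and Eif4e are shown because the order of these genes differed between the groups. That of Eif4a1 is shown because it was called higher in deposited TPM and under all 3 scalings above. Eif1a and Eif4a3 met the same rule and are not shown. Each sequence is the 250 bases ending just before an annotated start, 5′ to 3′ on the strand of the gene, on GRCm38.p6. Where several starts were listed, 3 for Eif4e2 and 2 for Eif4e, the one farthest downstream was used. The sequences lie at chr1:87213689-87213938 (plus) for Eif4e2, chr3:138527018-138527267 (plus) for Eif4e and chr11:69672424-69672673 (minus) for Eif4a1. Capitals mark matches to CCGGAAG, the core of ETS factor motifs, or to CACGTG, the E-box of Myc and USF factors.
Eif4e2: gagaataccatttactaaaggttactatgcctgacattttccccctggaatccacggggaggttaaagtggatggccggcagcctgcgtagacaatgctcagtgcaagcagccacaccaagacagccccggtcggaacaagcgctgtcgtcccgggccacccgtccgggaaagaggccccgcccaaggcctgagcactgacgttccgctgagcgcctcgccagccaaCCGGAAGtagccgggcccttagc
Eif4e: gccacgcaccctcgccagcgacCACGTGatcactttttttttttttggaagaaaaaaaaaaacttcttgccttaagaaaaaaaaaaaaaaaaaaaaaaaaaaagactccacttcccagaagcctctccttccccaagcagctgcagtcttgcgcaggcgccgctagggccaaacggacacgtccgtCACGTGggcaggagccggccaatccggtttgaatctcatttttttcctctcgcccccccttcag
Eif4a1: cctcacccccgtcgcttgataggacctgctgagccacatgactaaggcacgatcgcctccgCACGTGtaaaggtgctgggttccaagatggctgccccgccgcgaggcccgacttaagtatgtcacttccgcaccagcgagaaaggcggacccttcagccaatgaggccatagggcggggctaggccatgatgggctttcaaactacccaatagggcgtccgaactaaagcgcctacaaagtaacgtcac
Eif4e2 held CCGGAAG 23 bases before its start, Eif4e held CACGTG 228 and 64 bases before its start, and Eif4a1 held CACGTG 189 bases before its start. Windows of 300 bases, 250 before to 50 after the start, were found for 40 of the 51 tested members. Searched on both strands, CCGGAAG was in 16 of these 40 (40%), against 20.3% of 9669 tested genes and 9.93% of all 27025 genes with a window. CACGTG was in 10 (25%), against 12.1% of tested and 8.09% of all genes. TGACGTCA, the cAMP response element, and TGATGNAAN (N is any base), the C/EBP-ATF element, were in 0 of the 40, against 3.51 and 2.56% of tested genes. Letters matched in a window are a description and were not tested for binding.

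The helicase eIF4A unwinds the leader of the mRNA. Eif4a1 had 223 and 235 TPM in Exercise libraries, against 99.4 and 122 TPM in Control libraries. The groups lay far apart (log2 difference 1.05, SE 0.14, adjusted p = 0.0031), and the gene stayed higher after median-of-ratios scaling (0.43, adjusted p = 0.034). Eif4a2, the paralog with the larger TPM in this muscle, had 578 and 571 TPM in Exercise, against 359 and 456 TPM in Control. It was called higher in deposited TPM (0.51, adjusted p = 0.025) and not after scaling, at -0.12. Eif4a1 stood at 0.386 and 0.412 times the TPM of Eif4a2 in Exercise and at 0.277 and 0.268 times in Control. Eif4a3, which belongs to the exon junction complex rather than to eIF4F, had 69.8 and 79.8 TPM in Exercise, against 36.7 and 39.1 TPM in Control. Both Exercise values were above both Control values by more than 1.5 times, and the difference of 0.96 (adjusted p = 0.0032) was 0.35 after scaling (adjusted p = 0.032). A processed pseudogene row named for eIF4A, Eif4a-ps4, was listed at 9.73 and 37.8 TPM in Exercise and 9.93 and 13.7 TPM in Control, and its sharing of reads with these genes was not tested.

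The helicase cofactors Eif4b and Eif4h split at the threshold. Eif4b had 113 and 123 TPM in Exercise libraries, against 72.5 and 103 TPM in Control libraries. It was not called (log2 difference 0.44, adjusted p = 0.077, after scaling -0.18). Eif4h was called higher at 0.60 (adjusted p = 0.0096) and stood at -0.01 after scaling.

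The scaffolds differed in their calls. Eif4g2 encodes DAP5, which lacks the eIF4E-binding site of its relatives and serves initiation without eIF4E. It had 320 and 351 TPM in Exercise libraries, against 196 and 216 TPM in Control libraries. The groups were well apart (log2 difference 0.70, SE 0.13, adjusted p = 0.0053), while after median-of-ratios scaling the difference was 0.08 and not called. Eif4g1, the main scaffold of eIF4F, had 131 and 126 TPM in Exercise, against 114 and 137 TPM in Control. Eif4g3, its closest relative, had 32.6 and 32.7 TPM in Exercise, against 27.5 and 32.2 TPM in Control. Neither was called in deposited TPM (log2 differences 0.04 and 0.13, adjusted p = 0.83 and 0.43), and both were lower after scaling, at -0.58 and -0.47 (adjusted p = 0.022 and 0.027). The ratio of Eif4g2 to Eif4g1 was 2.45 and 2.78 in Exercise and 1.73 and 1.57 in Control, and that of Eif4g3 to Eif4g1 was 0.250 and 0.259 in Exercise and 0.242 and 0.234 in Control.

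The eIF4E-binding proteins hold eIF4E away from eIF4G until mTORC1 phosphorylates them. Eif4ebp1 had 37.1 and 40.7 TPM in Exercise libraries, against 34.1 and 45.5 TPM in Control libraries. Eif4ebp2 had 27.8 and 27.4 TPM in Exercise, against 26.2 and 36.4 TPM in Control. The groups overlapped for both (log2 differences -0.02 and -0.16, adjusted p = 0.93 and 0.46), and both were lower after median-of-ratios scaling, at -0.62 and -0.76 (adjusted p = 0.026 and 0.024). Eif4ebp3 had 3.54 and 6.22 TPM in Exercise, against 0 and 1.32 TPM in Control. It had the largest difference of the members in deposited TPM (1.91, adjusted p = 0.0094), with a standard error of 0.42, and was not called after scaling (1.58, adjusted p = 0.072). It shares 67.3% of its exonic bases with a protein-coding gene on the same strand, listed at 5.79 and 6.81 TPM in Exercise and 5.32 and 5.63 TPM in Control, so its reads cannot be told apart from that gene's in this stretch. Eif4enif1, which encodes a shuttling protein that carries eIF4E into the nucleus, was called higher at 0.76 (adjusted p = 0.0057) and not after scaling (0.18). Over factor 4, 8 of 15 tested genes were called higher and 1 lower, beside 55.3% and 6.19% of all tested genes, and without Exercise library 2 the number higher was 3, beside 19.7%.

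Ratios within a library do not depend on how whole libraries are scaled. Of 18 ratios computed, 17 separated the groups, among them that of Eif4g3 to Eif4g1 at 1.07-fold, and that of Eif3j1 to Eif3j2 did not. Some pairs, such as Eif3l to Eif3k and Eif2s1 to Eif2s2, set a gene of larger difference over a gene of smaller difference. How often ratios of other gene pairs separate the groups was not computed, so nothing is read from this count. Eif4e2 stood at 1.57 and 1.45 times the TPM of Eif4e in Exercise libraries and at 0.649 and 0.445 times in Control libraries, which is 2.76 times higher by the means. Eif4e3 stood at 0.0677 and 0.0608 times the TPM of Eif4e2 in Exercise and at 0.367 and 0.350 times in Control. Eif4ebp1 stood at 0.334 and 0.357 times the TPM of Eif4e2 in Exercise and at 0.788 and 0.822 times in Control. These ratios are a description, since 2 libraries against 2 allow no permutation p under 0.33. A ratio shows that its 2 genes changed unequally and not which of them changed.

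**Figure D3:**
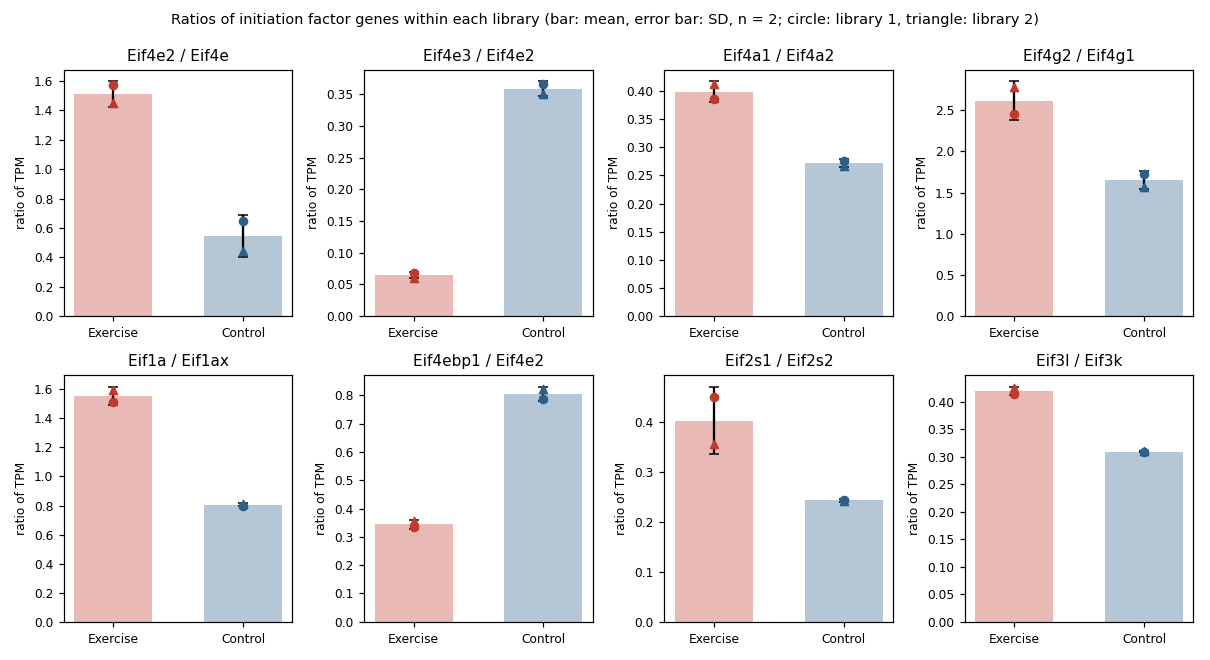
Ratios of TPM between initiation factor genes within each library, with bars for the mean and error bars for the SD of 2 libraries per group, circles for library 1 and triangles for library 2. The 8 ratios drawn are among the 17 of 18 whose groups do not overlap, and the Eif4e2 to Eif4e ratio averaged 1.51 ± 0.087 in Exercise and 0.547 ± 0.14 in Control.

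Factor number 5 held 4 genes of differing roles. Eif5a, better known for helping the ribosome through difficult peptide bonds than for initiation, had 365 and 398 TPM in Exercise libraries, against 293 and 328 TPM in Control libraries. Every Exercise value was above every Control value, yet the difference was not called (0.30, adjusted p = 0.081), and after median-of-ratios scaling it was lower (-0.32, adjusted p = 0.040). Its paralog Eif5a2 was close to the detection limit, with 1.84 and 1.87 TPM in Exercise against 0.77 and 0.97 TPM in Control, and was called higher in deposited TPM (0.61, adjusted p = 0.020) and not after scaling (0.27). Eif5, the GTPase activator of eIF2, had 114 and 118 TPM in Exercise, against 69.0 and 89.1 TPM in Control. It did not overlap between groups (0.56, adjusted p = 0.020) and stood at -0.06 after scaling. Eif5b, the GTPase that joins the subunits, gave 0.57 (adjusted p = 0.024) and -0.03. It overlaps Rev1 on the opposite strand over 16.85% of its exonic bases. Rev1 was at 10.3 and 12.2 TPM in Exercise and 7.48 and 8.99 TPM in Control, and reads of this stretch cannot be assigned to either gene. Eif5a2 reached 1 TPM in Exercise libraries alone, so it was tested only through the group where it was high. Of the 4 genes, 3, Eif5a2 among them, were called higher, beside 55.3% of all tested genes. None was when Exercise library 1, Exercise library 2 or Control library 1 was left out, beside 40.4, 19.7 and 43.8% of all genes.

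Factor number 6 has 1 gene. Eif6, which keeps the large ribosomal subunit from joining too early, had 38.5 and 40.2 TPM in Exercise libraries, against 23.9 and 24.3 TPM in Control libraries. The replicates lay close together and the groups apart (log2 difference 0.69, SE 0.12, adjusted p = 0.0053). After median-of-ratios scaling the difference was 0.08 (adjusted p = 0.50), and without Exercise library 2 the gene was not called in deposited TPM.

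The 19 members below the filter were 16 relatives of Eif1ad, none of them above 0.16 TPM in any library, Eif4a3l1 and Eif4a3l2, both at 0 TPM throughout, and Eif4e1b. Among the rows that the symbol pattern found and the rule left out, Eif2s3x, the X-linked gene of eIF2γ, had 72.4 and 79.2 TPM in Exercise against 50.5 and 60.2 TPM in Control, and Eif2s3y, its Y-linked copy, 16.7 and 25.2 TPM against 0.30 and 0 TPM. Eif2d, whose row carries another biotype, had 13.1 and 12.8 TPM in Exercise against 11.2 and 11.9 TPM in Control.

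Of 19 partners and repressors of eIF4F, 13 were called higher and none lower, beside 55.3% and 6.19% of all tested genes. After median-of-ratios scaling, which lowers the difference of all expressed genes here, 2 were higher and 4 lower, beside 10.9% and 16.2% of all genes. Ncbp1, the large subunit of the nuclear cap-binding complex, had 35 and 39.5 TPM in Exercise libraries against 16.1 and 18.4 TPM in Control libraries, with log2 differences of 1.07 (adjusted p = 0.0031) and 0.47 after scaling (adjusted p = 0.021). Gigyf2, the partner of 4EHP, had 31.3 and 33.5 TPM in Exercise against 14.7 and 18.3 TPM in Control (0.94, adjusted p = 0.0042), and 0.34 after scaling, which did not pass (adjusted p = 0.071). Both separated the groups without overlap. Paip2, an inhibitor of the poly(A)-binding protein, and Pabpc4, a poly(A)-binding protein, were not called, at 0.26 and 0.29, and turned to -0.36 and -0.33 after scaling, Paip2 being called lower (adjusted p = 0.029). Of 10 helpers of scanning, recycling and start site choice, 5 were called higher, beside 55.3% of all tested genes. After scaling 3 were lower, beside 16.2% of all genes. Bzw1, an eIF5 mimic, and Abce1, the recycling ATPase, gave 0.88 and 0.82, and 0.27 and 0.22 after scaling. Ddx3x, an RNA helicase encoded on the X chromosome, and Mcts1, a reinitiation factor, gave 0.31 and 0.34, not called, and -0.30 and -0.28 after scaling.

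Among 12 tested genes of eIF2 assembly, its phosphatase and the integrated stress response, 8 were called higher and 2 lower. The shares of all tested genes were 55.3% and 6.19%. After median-of-ratios scaling the numbers were 0 and 3, beside 10.9% and 16.2% of all tested genes. The 2 lower were Chac1, a glutathione-degrading target of ATF4, at 18.0 and 13.6 TPM in Exercise libraries against 27.5 and 25.3 TPM in Control libraries, and Cebpg, a partner of ATF4, at 8.70 and 9.91 TPM against 12.8 and 12.3 TPM, named here after their values were seen. Ppp1r15a was among the 8 called higher (0.79, adjusted p = 0.0068) and was not called after scaling (0.22). The targets of ATF4 were not tested as a group. Atf4 itself had 112 and 119 TPM in Exercise against 95.7 and 110 TPM in Control and was not called (0.17, adjusted p = 0.29), while after scaling it was lower (-0.45, adjusted p = 0.020). Its RNA level says nothing of its translation, at which the pathway acts. Dnajc3, an inhibitor of eIF2α kinases, and Nck1, an adaptor that binds eIF2β, were called higher at 0.81 and 0.88 and not after scaling, at 0.22 and 0.27. Cdc123, the assembly chaperone of eIF2, gave 0.61 and 0.00.

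Of 27 tested genes of the mTORC1 pathway, 15 were called higher and 1 lower, beside 55.3% and 6.19% of all tested genes. After median-of-ratios scaling 2 were higher and 8 lower, beside 10.9% and 16.2% of all tested genes. Rragc, a Rag GTPase, had 35.2 and 34.1 TPM in Exercise libraries against 16.6 and 18.0 TPM in Control libraries (0.96, adjusted p = 0.0031, after scaling 0.37 and adjusted p = 0.052). Flcn, the folliculin gene, whose protein acts on Rag GTPases, had 42.1 and 49.6 TPM in Exercise against 21.7 and 24.0 TPM in Control and passed under both (0.97 and 0.37, adjusted p = 0.0035 and 0.036). Lamtor5 and Lamtor1, subunits of the lysosomal anchor of the Rag GTPases, gave 0.23 and 0.36, and -0.39 and -0.26 after scaling. The hypusine enzymes that modify eIF5A, Dhps (0.34, adjusted p = 0.070) and Dohh (0.42, adjusted p = 0.091), were not called, and stood at -0.25 and -0.17 after scaling.

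In elongation and release, Gspt2 reached 1 TPM in Exercise libraries alone and so was tested only through the group where it was high. Of the 11 genes, 8, Gspt2 among them, were called higher and 1 lower, beside 55.3% and 6.19% of all tested genes. After median-of-ratios scaling the numbers were 1 and 2, beside 10.9% and 16.2% of all tested genes. Eef1a1, the elongation factor that delivers aminoacyl-tRNA in most tissues, had 3317 and 3684 TPM in Exercise libraries against 1313 and 1543 TPM in Control libraries (1.30, adjusted p = 0.0028, after scaling 0.67). Eef1a2, its counterpart in adult muscle and neurons, had 154 and 98.1 TPM in Exercise against 363 and 453 TPM in Control (-1.71, adjusted p = 0.0031, after scaling -2.33). The direction of both held under either setting. Eef2, the translocase, was called higher at 0.62 and stood at 0.00 after scaling. Of 10 factors of mitochondrial translation, 5 were called higher, beside 55.3% of all tested genes, and after scaling 5 lower, beside 16.2%. Mtif2 and Tsfm, an initiation and an elongation factor, were called higher at 0.56 and 0.55 and stood at -0.02 and -0.03 after scaling, while Tufm and Gfm1, both elongation factors, were not called, at 0.22 and -0.06, and were lower after scaling, at -0.40 and -0.66. Without Exercise library 2 the numbers called higher were 4 of the eIF4F partners, 1 of the scanning helpers, 3 of the stress response genes, 3 of the mTORC1 genes, 2 of the elongation factors and 0 of the mitochondrial factors, beside 19.7% of all tested genes. Nothing particular to a list was read from these counts.

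**Figure D4:**
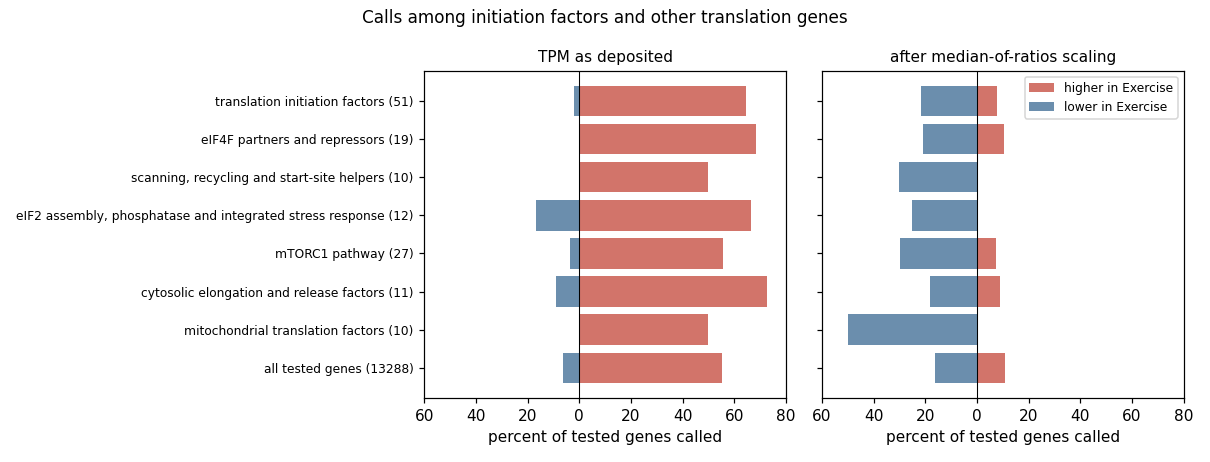
Percent of tested genes called higher (red, to the right of 0) and lower (blue, to the left of 0) in Exercise at an adjusted p under 0.05, for the initiation factors, the lists of related translation genes with more than 2 members and all 13288 tested genes, as deposited (left) and after median-of-ratios scaling (right), with the number tested in parentheses. As deposited, 64.7% of the initiation factors and 55.3% of all genes were called higher, and after scaling lower calls outnumber higher ones in every list drawn and among all genes.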

How the data were processed

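RNA-seq of TA muscle from 2 Exercise and 2 Control libraries was analysed from 1 deposited table. The authors deposited TPM for 57180 genes, rounded to 2 decimals, per the labels from fastp, HISAT2 and StringTie on GRCm39 with versions not given in the sources used here. The library kit is named as Illumina Stranded mRNA Prep in the labels and as NEBNext Ultra in the methods, so whether the counting used strand is not known. TPM keeps no depth, so neither counting intervals nor DEGseq, the count test of the study, could be used, and precision rests on 2 libraries per group.

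The 13288 genes that reached 1 TPM in 2 or more of the 4 libraries were fitted as log2(TPM + 1), a pseudocount of 1, by limma 3.58.1 (R 4.3.3, trended eBayes, no covariate), Benjamini-Hochberg adjusted over all tested genes, with a threshold of 0.05. The fit was tested on simulated data. Median-of-ratios factors were 1.19 and 1.31 for Exercise and 0.783 and 0.838 for Control. The closing section gives the other pseudocounts, filters, scalings, thresholds and libraries left out. Across genes, log2 values correlated at 0.982 between Exercise libraries, 0.980 between Control libraries and 0.940 to 0.947 between groups. The members and lists were chosen with earlier results of these data known. Per-library values were given for the 2 most abundant genes of each factor number, members called lower or not called, members called after median-of-ratios scaling and paralog pairs, and in each list for the 2 genes of smallest p and the 2 of highest mean TPM. Overlaps and shared runs of 50 bases came from GENCODE vM21 on GRCm38, where all 51 tested members were found by identifier, and start-site windows from RefSeq on GRCm38.p6, leaving out chromosome 18. Python 3.11.15, pandas 2.3.3, numpy 2.4.6 and matplotlib 3.10.9 were used.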

Additional observations from a re-analysis of the deposited data

How the results depend on the processing

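Under pseudocounts of 0.1 and 0.01, a universe of protein-coding genes, limma with no trend or with a robust fit, and a mean of at least 5 TPM, every named gene tested kept its direction, and at most 2 of their calls were lost and at most 2 gained under each. Numbers called moved with the scaling and the libraries. Initiation factors called higher were 4 after median-of-ratios scaling, 8 by quantile normalization, 9 without the 50 highest genes, 15 with no filter, 20 at a ratio of means of at least 1.5 and 14 at an adjusted p under 0.01, against 33. Those called lower were 11, 7 and 4 under the 3 scalings, against 1. Of all tested genes, 1452, 2178 and 3432 were higher under those scalings, 4513 with no filter and 4158 at 0.01, against 7344, and 2152, 1749, 1508, 456 and 393 were lower, against 822. With 1 library left out, 6 to 35 initiation factors were higher and 1 to 2 lower, and 2622 to 7039 genes were higher and 410 to 814 lower. With median-of-ratios scaling and 1 library left out, a choice made after seeing the data, the numbers without Exercise library 1, Exercise library 2, Control library 1 and Control library 2 were 0, 0, 1 and 5 initiation factors higher and 1, 1, 10 and 6 lower, and 48, 15, 690 and 955 genes higher and 596, 215, 1421 and 1483 lower.

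The log2 differences that changed sign after median-of-ratios scaling were Eif1ax -0.35, Eif1b -0.20, Eif2a -0.31, Eif2ak1 -0.41, Eif2b1 -0.24, Eif2b3 -0.092, Eif2b4 -0.37, Eif2b5 -0.21, Eif2s2 -0.41, Eif3e -0.19, Eif3f -0.12, Eif3g -0.060, Eif3h -0.18, Eif3i -0.16, Eif3j2 -0.58, Eif3k -0.18, Eif3m -0.12, Eif4a2 -0.12, Eif4b -0.18, Eif4g1 -0.58, Eif4g3 -0.47, Eif4h -0.014, Eif5 -0.055, Eif5a -0.32, Eif5b -0.030, Paip2 -0.36, Pabpc4 -0.33, Ddx3x -0.30, Mcts1 -0.28, Atf4 -0.45, Cdc123 -0.003, Lamtor5 -0.39, Lamtor1 -0.26, Dhps -0.25, Dohh -0.17, Eef2 -0.002, Mtif2 -0.023, Tsfm -0.034 and Tufm -0.40. After quantile normalization they were Eif1ax -0.23, Eif1b -0.055, Eif2a -0.14, Eif2ak1 -0.34, Eif2b1 -0.076, Eif2b3 -0.019, Eif2b4 -0.22, Eif2b5 -0.056, Eif2s2 -0.13, Eif3j2 -0.45, Eif4g1 -0.30, Eif4g3 -0.34, Eif5a -0.075, Paip2 -0.099, Pabpc4 -0.037, Ddx3x -0.083, Mcts1 -0.079, Atf4 -0.17, Lamtor5 -0.13, Lamtor1 -0.028, Dhps -0.20, Dohh -0.099 and Tufm -0.19. Without the 50 highest genes they were Eif1ax -0.14, Eif2a -0.094, Eif2ak1 -0.21, Eif2b1 -0.025, Eif2b4 -0.16, Eif2s2 -0.19, Eif3j2 -0.37, Eif4g1 -0.36, Eif4g3 -0.27, Eif5a -0.10, Paip2 -0.14, Pabpc4 -0.12, Ddx3x -0.086, Mcts1 -0.060, Atf4 -0.23, Lamtor5 -0.17, Lamtor1 -0.042, Dhps -0.043 and Tufm -0.18, and without the mitochondrial genome Eif3j2 -0.042 and Eif4g1 -0.032. With 1 library left out, the differences that changed sign ranged from -0.098 to 0.085 for Eif1, from -0.008 to 0.61 for Eif2a, from -0.12 to 0.096 for Eif3j1, from -0.21 to 0.26 for Eif3j2, from -0.73 to 0.16 for Eif4e, from -0.22 to 0.18 for Eif4ebp1, from -0.39 to 0.072 for Eif4ebp2 and from -0.099 to 0.17 for Eif4g1. The cause was not tested.

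Deviations of same-numbered libraries from their group means correlated at -0.0487 across genes. From 4 libraries this value cannot show whether same-numbered libraries were processed together. With the number as a replicate block, 35 initiation factors were higher and 1 lower, and 7400 genes were higher and 830 lower. Depth is unknown for these values.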
